A study of Mus musculus with 12 samples.

Results

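The genes described here are the mouse zinc finger genes whose symbol is Zkscan or Zscan followed by a number, or Zfp followed directly by a number below 600. They were 191 of the 18193 genes measured, namely 172 Zfp, 10 Zkscan and 9 Zscan genes. Each gene was read from 1 probe set assigned to that gene alone, chosen by the highest mean signal over the 12 arrays, a value that takes no account of genotype or sex. The family itself was singled out with earlier results of these data known, so its counts are given as descriptions beside the same counts over all genes.

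Expression was measured on Affymetrix arrays in gonads of mouse embryos at E11.5, when the gonad has the potential to become either testis or ovary. The 4 groups were XX embryos labelled Cbx2 KO (KO XX), XY embryos labelled Cbx2 KO (KO XY), XX embryos labelled wild type (WT XX) and XY embryos labelled wild type (WT XY), with 3 arrays each. All embryos came from crosses between Cbx2 heterozygotes, and the sources used here do not describe the allele. Each array held cells that were cut by laser from 30 µm frozen sections, guided by GATA4 staining and tissue form, and pooled from 2 to 3 individuals, so p-values measure the spread between pools. Values are log2 signals, and a difference of 1 is a 2-fold change. In bulk tissue, fewer cells of a type and less RNA per cell cannot be told apart.

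Many zinc finger proteins bind DNA through tandem C2H2 fingers, and in a large vertebrate subfamily the fingers are joined to a KRAB domain. KRAB domains recruit the co-repressor Trim28, which brings the histone H3 lysine 9 methyltransferase Setdb1 and heterochromatin proteins to transposable elements and to some imprinted regions. A SCAN domain, from which Zscan genes take their name, lets zinc finger proteins pair, and Zkscan genes encode both KRAB and SCAN domains. The genes arose largely by tandem duplication, so close relatives lie side by side and may share array signal. Cbx2, the gene targeted here, encodes a chromobox subunit of Polycomb repressive complex 1, which is needed for testis formation in mice.

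Some facts about the arrays bear on every result that follows. The arrays labelled KO had the higher Cbx2 signal, with log2 values of 9.28, 9.27 and 9.48 in KO XX pools against 8.77, 8.46 and 8.57 in WT XX pools, and of 9.43, 9.33 and 9.58 in KO XY pools against 8.93, 9.04 and 8.81 in WT XY pools. Neither the cause of this higher signal nor the place of the probe set relative to the targeted part of Cbx2 was tested. In the labels of the WT arrays the source field gives KO XX instead, so every direction rests on the genotype labels. WT XX replicate 1 stood apart: its mean correlation across genes was 0.988 with its own group and 0.995 with the WT XY arrays. Cell markers moved with genotype as well. Of 16 endothelial markers, 14 were lower in KO, with list means per array of 6.79 to 7.44 in KO XX and 6.70 to 7.27 in KO XY, against 7.60 to 7.82 in WT XX and 7.82 to 7.97 in WT XY. Of 13 macrophage markers 6 were higher in KO (6.84 to 7.48 in KO XX and 6.99 to 7.13 in KO XY, against 6.41 to 6.74 in WT XX and 6.55 to 6.78 in WT XY), and of 13 germ cell markers 7 were higher in KO (7.81 to 8.03 in KO XX and 7.74 to 8.03 in KO XY, against 7.39 to 7.66 in WT XX and 7.54 to 7.82 in WT XY). None of 8 erythroid markers passed either way. Of 10 mesonephros markers 2 rose and 2 fell (5.88 to 6.12 in KO XX and 5.79 to 5.88 in KO XY, against 5.99 to 6.17 in WT XX and 6.09 to 6.16 in WT XY). Of 7 neural markers 2 rose (5.59 to 5.72 in KO XX and 5.58 to 5.73 in KO XY, against 5.34 to 5.54 in WT XX and 5.37 to 5.44 in WT XY). Of 8 early gonad markers 2 rose and 3 fell, with list means of 9.16 to 9.48 in KO XX and 9.17 to 9.36 in KO XY, against 9.55 to 9.79 in WT XX and 9.78 to 9.86 in WT XY. Cbx2 itself is on this gonad list and is 1 of the 2 that rose, so its signal is part of these list means. The part of these cell types in the zinc finger results was not tested. The Gapdh 3′ minus 5′ signal, which grows as RNA breaks down, was higher by 0.786 in KO XY than in WT XY (exact permutation test, two-sided p = 0.1, the smallest that 3 against 3 can give) and differed by -0.258 between KO XX and WT XX (exact permutation test, two-sided p = 0.4).

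The promoters of the genes with the largest differences, and of 1 neighbour in a gene cluster, are shown with the short motifs that were counted across the family. Each sequence is the 250 bases before the RefSeq transcription start (assembly GRCm38.p6), read 5′ to 3′ in the direction of the gene. Capitals mark the ETS core CCGGAAG, the GC box GGGCGG, the CCAAT box, or the core ACTACAATT of the motif bound by the activator Zfp143, each on either strand. Zfp560 had the largest rise in KO, Zfp277 the largest fall, and Zfp93 is a gene of the chromosome 7 cluster whose promoter holds the Zfp143 motif.
Zfp560 (chr9:20385159-20385408, minus strand): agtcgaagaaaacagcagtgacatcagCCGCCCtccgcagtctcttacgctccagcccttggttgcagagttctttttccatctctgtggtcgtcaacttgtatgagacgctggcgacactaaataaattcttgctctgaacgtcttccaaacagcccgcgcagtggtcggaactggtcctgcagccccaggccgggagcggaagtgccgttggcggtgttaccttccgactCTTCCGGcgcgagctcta
Zfp277 (chr12:40445791-40446040, minus strand): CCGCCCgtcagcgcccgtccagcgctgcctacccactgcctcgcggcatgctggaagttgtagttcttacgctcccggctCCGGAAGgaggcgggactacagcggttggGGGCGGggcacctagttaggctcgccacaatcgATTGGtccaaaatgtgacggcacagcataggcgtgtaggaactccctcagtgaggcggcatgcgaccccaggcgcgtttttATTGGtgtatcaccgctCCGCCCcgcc
Zfp93 (chr7:24270168-24270417, plus strand): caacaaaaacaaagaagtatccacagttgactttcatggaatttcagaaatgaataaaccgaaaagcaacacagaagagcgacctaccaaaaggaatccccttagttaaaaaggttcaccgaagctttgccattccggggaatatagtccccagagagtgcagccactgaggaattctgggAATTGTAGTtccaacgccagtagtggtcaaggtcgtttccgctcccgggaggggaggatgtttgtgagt

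In RefSeq, 148 of the 191 genes had a promoter entry, with 182 promoters in all. The ETS core was found in 39 of these (21.4%), against 6.91% of all 32851 promoters. Those promoters belong to 27025 genes, whether or not the arrays measured them. The Zfp143 core was found in 9 (4.95%), against 0.365% of all promoters, and the GC box in 43.4%, against 32.7%. The TATA letters TATAAA were rarer, in 7.69% against 12.4%, while CCAAT stood in 33.5% against 33.8%. The NRF1 letters GCGCATGCG were found in 3.85%, against 1.45%. Both strands were searched and motifs were allowed to overlap. Median GC content was 55.6% in the family's promoters and 52.4% in all promoters, and related genes share ancestral sequence. The ETS core stood in 7 of the 47 promoters of genes higher in KO, that of Zfp560 among them, and in 3 of the 12 promoters of genes lower in KO, that of Zfp277 among them. The Zfp143 core stood in 2 of the 47 and in 0 of the 12. A match describes letters and not binding.

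Zinc finger genes were mostly higher in the arrays labelled KO. Averaged over both sexes, 54 of the 191 genes rose at an adjusted p under 0.05 (28.3%, against 13.4% of all genes) and 10 fell (5.24%, against 10.3%). The median log2 fold change of the 191 genes was 0.17 (quartiles -0.02 and 0.36), and that of all genes was -0.01 (quartiles -0.13 and 0.15). A positive fold change was found for 135 genes (70.7%, against 47.3% of all genes). Without WT XX replicate 1 the counts were 57 higher and 8 lower, and 59 of the 64 called genes remained past the threshold.

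The changes were small. The 54 genes that rose did so by 1.4-fold in the median, between 1.18-fold for Zfp105 and 2.16-fold for Zfp560, and the 10 that fell did so by up to 1.91-fold. In 25 genes all KO arrays lay above all WT arrays within both sexes (13.1%, against 8.45% of all genes), and in 5 all lay below (2.62%, against 6.54%). The mean log2 value over the 191 genes was 8.05, 8.01 and 8.06 in KO XX pools and 8.04, 7.96 and 8.03 in KO XY pools, against 7.81, 7.85 and 7.88 in WT XX pools and 7.83, 7.89 and 7.87 in WT XY pools. All 6 KO arrays lay above all 6 WT arrays on this measure, while the mean over all genes lay between 7.16 and 7.23 in every array.

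**Figure D1:**
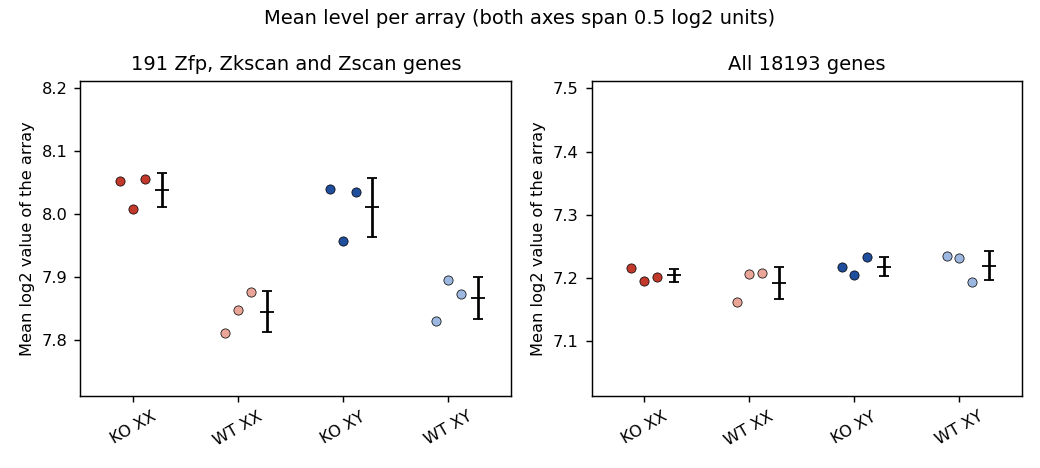
Mean log2 value per array over the 191 zinc finger genes (left) and over all 18193 genes (right), in KO XX, WT XX, KO XY and WT XY pools. Points are arrays, the short bars are group means and the whiskers are SD (n = 3). The zinc finger means reach 7.96 to 8.06 in KO arrays and 7.81 to 7.89 in WT arrays.

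Calls were spread unevenly over the signal range. Among the 31 genes whose probe set averaged under 6, 3 rose and 5 fell, while over all genes of that signal range 3.61% rose and 5.23% fell. Between 6 and 8, 14 of 71 rose and 2 fell, against 15.9% and 15.1% of all genes in the range. Between 8 and 10, 21 of 62 rose and 2 fell, against 20.5% and 13.3%, and from 10 upward 16 of 27 rose and 1 fell, against 22.3% and 10.3%. The median log2 fold change of the zinc finger genes in these ranges was -0.02, 0.12, 0.23 and 0.35, from dim to bright. Probe sets differ in how brightly they hybridise, so their signal is no ranking of RNA amounts between genes.

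Zfp560 had the largest rise. Its log2 values were 8.51, 8.99 and 8.77 in KO XX pools against 7.09, 7.65 and 7.88 in WT XX pools, and 8.45, 8.24 and 8.58 in KO XY pools against 7.05, 7.59 and 7.60 in WT XY pools. Every KO array lay above every WT array. The log2 fold change was 1.22 ± 0.20 in XX (limma with Benjamini-Hochberg adjustment, adjusted p = 0.000864) and 1.01 ± 0.20 in XY (adjusted p = 0.00355). The gene's other probe set went the opposite way, with a log2 fold change of -0.65 ± 0.15 over both sexes (adjusted p = 0.0073 in a fit over all probe sets). The direction for Zfp560 therefore holds for 1 probe set only, and with the mean of both probe sets the adjusted p became 0.0572.

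Zfp329 had log2 values of 10.37, 9.81 and 9.85 in KO XX pools against 8.67, 9.76 and 9.49 in WT XX pools. In XY it had 10.09, 9.95 and 9.75 in KO pools against 8.72, 9.05 and 9.18 in WT pools. The groups did not overlap in either sex, although in XX the margin over WT XX replicate 2 was narrow. Over both sexes the log2 fold change was 0.82 ± 0.17 (adjusted p = 0.00208), and a second probe set gave 0.56 ± 0.09. A further, dim probe set gave -0.03 ± 0.08. In XX alone the value was 0.70 ± 0.24 (adjusted p = 0.065), and it was 0.38 ± 0.18 without WT XX replicate 1 (adjusted p = 0.21).

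Zkscan16 had log2 values of 8.44, 8.93 and 8.82 in KO XX pools against 7.71, 7.76 and 8.14 in WT XX pools, and of 8.64, 8.42 and 8.67 in KO XY pools against 8.01, 8.17 and 8.07 in WT XY pools. All KO arrays lay above all WT arrays. The log2 fold change was 0.86 ± 0.15 in XX (adjusted p = 0.00111) and 0.49 ± 0.15 in XY (adjusted p = 0.0401).

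Zfp160 rose with little spread between pools. It had 8.31, 8.30 and 8.42 in KO XX pools against 7.64, 7.71 and 7.65 in WT XX pools, and 8.31, 8.09 and 8.11 in KO XY pools against 7.58, 7.54 and 7.79 in WT XY pools. The gap between the groups was wider than the spread within any of them, and the log2 fold change was 0.61 ± 0.08 over both sexes (adjusted p = 3.28e-05).

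Zfp9 reached 8.93, 8.54 and 8.35 in KO XX pools, against 7.66, 7.65 and 8.11 in WT XX pools. In XY its values were 7.95, 7.86 and 7.97 in KO pools and 7.18, 7.52 and 7.59 in WT pools. The rise was 0.80 ± 0.17 in XX (adjusted p = 0.00437) and 0.65 ± 0.12 over both sexes (adjusted p = 0.000879). In XY alone the value was 0.49 ± 0.17 (adjusted p = 0.0651), without overlap between the groups.

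Zfp423, a cofactor of Smad proteins in BMP signalling that also marks preadipocytes, had 8.17, 8.29 and 8.36 in KO XX pools against 7.40, 7.76 and 7.89 in WT XX pools. In XY it had 8.56, 8.03 and 8.47 in KO pools against 7.73, 7.84 and 7.75 in WT pools. It rose by a similar amount in both sexes, 0.59 ± 0.15 in XX (adjusted p = 0.0168) and 0.58 ± 0.15 in XY (adjusted p = 0.0184). Without WT XX replicate 1, the value in XX was 0.45 ± 0.15 (adjusted p = 0.0612).

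Zfp503, a transcriptional repressor of the developing striatum and limb, had 11.99, 12.29 and 12.09 in KO XX pools against 11.37, 11.93 and 11.81 in WT XX pools, and 12.17, 12.28 and 12.07 in KO XY pools against 11.37, 11.81 and 11.62 in WT XY pools. It rose by 0.50 ± 0.11 over both sexes (adjusted p = 0.004) and by 0.57 ± 0.16 in XY (adjusted p = 0.0238). In XX the difference was 0.42 ± 0.16 (adjusted p = 0.0949).

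The other genes with the largest rises and no overlap in either sex were Zfp12 (0.76 ± 0.20, adjusted p = 0.0131), Zfp101 (0.62 ± 0.12, adjusted p = 0.00176), Zfp592 (0.61 ± 0.10, adjusted p = 0.000458), Zfp467 (0.51 ± 0.12, adjusted p = 0.00516) and Zfp141 (0.48 ± 0.09, adjusted p = 0.00141). Zfp467 is known from osteoblast and adipocyte differentiation. In Zfp12, WT XX replicate 1 lay at 7.68 while WT XX replicates 2 and 3 lay at 9.24 and 9.0, close to the KO XX values of 9.39, 9.24 and 9.30, and its adjusted p was 0.0584 with the Gapdh covariate. Zfp592 rose with 1 of its probe sets, while its further probe sets gave -0.07 and -0.18, and its adjusted p was 0.263 with the mean of all.

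**Figure D2:**
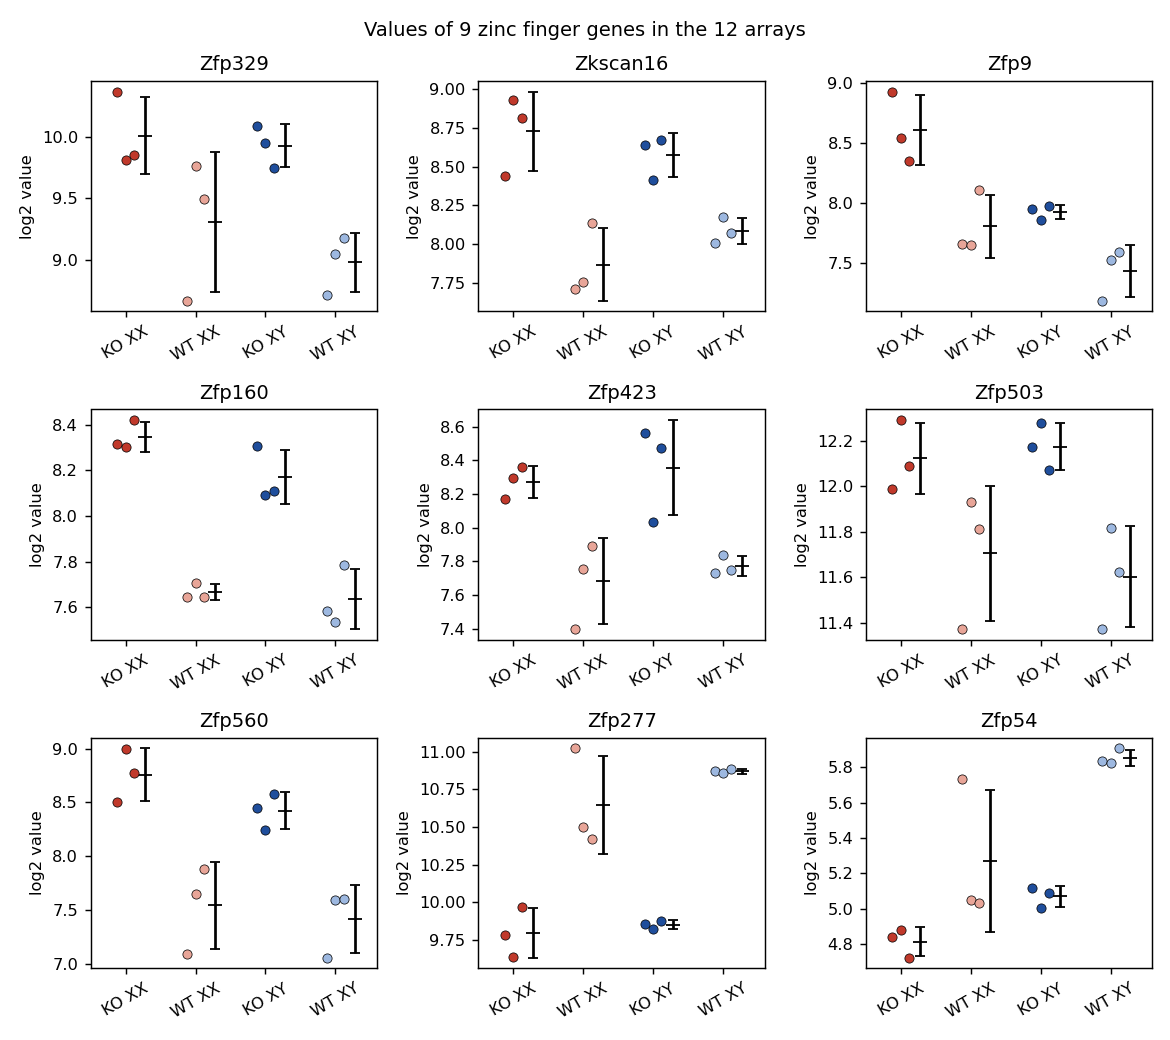
Log2 values of 9 zinc finger genes in KO XX, WT XX, KO XY and WT XY pools. Points are arrays, the short bars are group means and the whiskers are SD (n = 3); each axis has its own range. Zfp277 and Zfp54 are lower in KO. In every gene shown except Zfp9, the WT XX array farthest from the KO XX arrays is replicate 1, narrowly so in Zkscan16 and Zfp160.

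Zfp277, which in mouse fibroblasts works with the Polycomb protein Bmi1 at the Ink4a/Arf locus, had the largest fall. It had log2 values of 9.78, 9.64 and 9.97 in KO XX pools against 11.02, 10.50 and 10.42 in WT XX pools, and of 9.86, 9.82 and 9.87 in KO XY pools against 10.87, 10.86 and 10.88 in WT XY pools. All KO arrays lay below all WT arrays, and the spread in XY was very small. The log2 fold change was -0.85 ± 0.14 in XX (adjusted p = 0.00102) and -1.02 ± 0.14 in XY (adjusted p = 0.000211). Over both sexes it was -0.93 ± 0.10 (adjusted p = 8.72e-06), and the gene's second probe set gave -1.10 ± 0.13.

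Zfp54 had 4.84, 4.88 and 4.72 in KO XX pools against 5.74, 5.05 and 5.03 in WT XX pools, and 5.12, 5.0 and 5.09 in KO XY pools against 5.84, 5.82 and 5.91 in WT XY pools. Its log2 fold change was -0.62 ± 0.11 over both sexes (adjusted p = 0.00075), and only in XX did WT arrays come near the KO arrays. Its further, dimmer probe sets gave -0.07 and 0.08, and its adjusted p was 0.0638 with the mean of all. Without WT XX replicate 1 the difference in XX was -0.23 ± 0.11 (adjusted p = 0.206).

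Of the remaining genes that fell without overlap, Zfp91, which encodes a ubiquitin ligase, had a log2 fold change of -0.35 ± 0.09 (adjusted p = 0.0126) and Zscan2 one of -0.27 ± 0.07 (adjusted p = 0.0105). The further probe sets of Zfp91 gave -0.05, 0.50 and 0.16, and the mean of all its probe sets 0.06, so its direction depends on the probe set. Zfp593, whose relatives act in ribosome assembly in yeast and human cells, fell by 0.51 ± 0.14 (adjusted p = 0.0136). Its values overlapped between KO and WT in XX, and its call ended with the Gapdh covariate and with probe sets ending in _s_at or _x_at left out (adjusted p up to 0.116).

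In XY gonads 22 of the 191 genes rose (against 6.56% of all genes) and 3 fell (1.57%, against 6.75%), namely Zfp277, Zfp3 and Zfp54. The median log2 fold change was 0.11, against 0.01 over all genes, and 127 genes had a positive one (66.5%, against 51.2%). All KO XY arrays lay above all WT XY arrays in 65 genes (34%, against 18.9%) and below them in 17 (8.9%, against 18.1%). The count of rises depended on the setting. It was 5 without WT XY replicate 1, 7 to 13 without any other single XY array, 40 without WT XX replicate 1 (with 6 falls) and 2 with the Gapdh 3′ minus 5′ signal as a covariate (1.05%, against 1.65% of all genes). At an adjusted p under 0.01 it was 3 (1.57%, against 3.22% of all genes). Counts of KO over WT with 1 array left out, here and elsewhere, are given without the shares of all genes. Whether the counts over all genes move with them is therefore not shown.

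Beyond those described above, Zfp383, Zfp319, Zkscan7 and Zfp455 were among the largest rises in XY. Zfp383 had 10.22, 10.42 and 10.22 in KO XY pools against 9.18, 9.27 and 9.48 in WT XY pools, a difference of 0.98 ± 0.26 (adjusted p = 0.0238). Its second, dim probe set gave -0.15 in XY, and with the mean of both its adjusted p over both sexes became 0.0569. Zfp319 had 9.01, 9.42 and 9.25 in KO XY pools against 8.34, 8.28 and 8.36 in WT XY pools, a difference of 0.90 ± 0.23 (adjusted p = 0.0162). In both genes the XY groups lay well apart, while in XX their difference was not past the threshold (Zfp383 0.57 ± 0.26, adjusted p = 0.183; Zfp319 0.43 ± 0.23, adjusted p = 0.253). Zkscan7 rose by 0.90 ± 0.26 (adjusted p = 0.0361), with 7.04, 7.36 and 7.02 in KO XY pools against 5.84, 6.55 and 6.34 in WT XY pools. Zfp455, a dim probe set, had 4.45, 4.50 and 4.39 in KO XY pools against 3.23, 3.64 and 3.85 in WT XY pools, a difference of 0.87 ± 0.24 (adjusted p = 0.0284). Its call over both sexes ended without WT XY replicate 1 (adjusted p = 0.0634).

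Zfp3 was the second largest fall in XY, with 5.46, 4.93 and 5.05 in KO XY pools against 6.02, 5.74 and 6.11 in WT XY pools. The log2 fold change was -0.81 ± 0.17 (adjusted p = 0.00561), and in XX, where the groups overlapped, it was -0.38 ± 0.17 (adjusted p = 0.171). The second probe set of Zfp3, of similar signal, gave -0.11 in XY. Over both sexes that probe set gave -0.20 (limma over all probe sets, adjusted p = 0.149).

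In XX gonads 24 genes rose (12.6%, against 8.3% of all genes) and 5 fell (2.62%, against 5.4%), namely Zfp277, Zfp52, Zfp91, Zfp94 and Zscan2. The median log2 fold change was 0.20, against -0.02 over all genes, and 140 genes had a positive one (73.3%, against 47.1%). All KO XX arrays lay above all WT XX arrays in 49 genes (25.7%, against 14.1%) and below them in 13 (6.81%, against 12.5%). Without WT XX replicate 1, 21 genes rose and 2 fell, and 18 of the 29 genes called in XX remained. With the Gapdh covariate 44 rose (23%, against 11.2% of all genes), and with only the XX groups in the fit 14 rose (7.33%, against 5.11%). The count was also 14 without KO XX replicate 3. The count of falls was 1 without KO XX replicate 3 and 3 without KO XX replicate 1 or 2, WT XX replicate 2 or WT XY replicate 1 or 2. At an adjusted p under 0.01 the count of rises was 7 (3.66%, against 4.35% of all genes).

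Zfp60, Zfp563 and Zfp185 were among the largest rises in XX. Zfp60 had 8.40, 8.88 and 9.01 in KO XX pools against 8.29, 7.36 and 7.95 in WT XX pools, a difference of 0.90 ± 0.24 (adjusted p = 0.0229). In XY its difference was 0.22 ± 0.24 (adjusted p = 0.653). Zfp563 had 6.94, 7.20 and 7.24 in KO XX pools against 6.83, 5.74 and 6.45 in WT XX pools, a difference of 0.79 ± 0.23 (adjusted p = 0.0322), and one of -0.01 ± 0.23 in XY (adjusted p = 0.989). The difference between the sexes did not pass the interaction test for Zfp60 (-0.68 ± 0.34, adjusted p = 0.758) or Zfp563 (-0.79 ± 0.32, adjusted p = 0.758). Over both sexes Zfp60 rose by 0.56 ± 0.17 (adjusted p = 0.0286), a call that ended in 9 of 22 alternatives (adjusted p up to 0.0823), among them without KO XX replicate 2 or 3, KO XY replicate 1 or 3, WT XX replicate 2 or WT XY replicate 1 or 2. In both Zfp60 and Zfp563 WT XX replicate 1 was the WT XX array nearest to the KO XX arrays. Zfp185, which encodes a LIM domain protein of the actin cytoskeleton, had 7.89, 8.0 and 8.43 in KO XX pools against 7.44, 7.39 and 7.36 in WT XX pools, a difference of 0.71 ± 0.14 (adjusted p = 0.00253). The second, dimmer probe set of Zfp185 gave -0.26 in XX, and with the mean of both its call over both sexes ended (adjusted p = 0.128).

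Zfp52 fell in XX by 0.60 ± 0.19 (adjusted p = 0.0492) and Zfp94 by 0.43 ± 0.14 (adjusted p = 0.0496). Neither fall was past the threshold without WT XX replicate 1, with a difference of -0.54 ± 0.21 for Zfp52 (adjusted p = 0.115) and of -0.32 ± 0.14 for Zfp94 (adjusted p = 0.157). The second, dimmer probe set of Zfp52 gave -0.12 over both sexes, and the mean of both -0.35 (adjusted p = 0.114), against -0.57 with the chosen one.

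The contrasts in XX and XY share no arrays, though they share the estimate of spread. Rises in both sexes were found in 8 genes, which are 36.4% of those in XY and 33.3% of those in XX: Zfp141, Zfp160, Zfp423, Zfp449, Zfp560, Zfp592, Zkscan1 and Zkscan16. Over all genes, rises in both sexes made up 69.8% of those in XY and 55.2% of those in XX. Only Zfp277 fell in both, which is 33.3% of the falls in XY and 20% of those in XX, against 57.6% and 71.9% over all genes. A fold change of the same sign in both sexes was found for 113 genes upward (59.2%, against 32.7% of all genes) and 37 downward (19.4%, against 34.4%). A further 21 rises and 3 falls passed only in the average over the sexes.

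**Figure D3:**
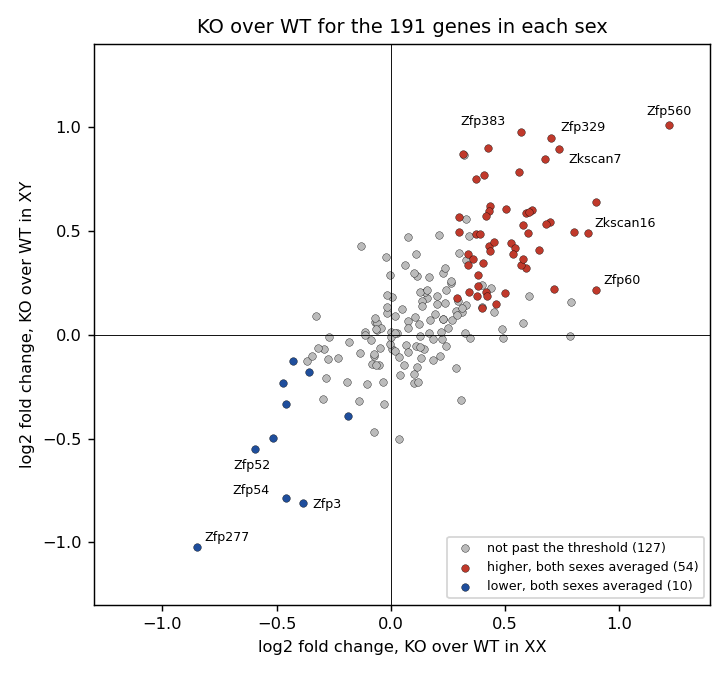
Log2 fold change of KO over WT in XX (horizontal) against that in XY (vertical) for the 191 genes, 1 point each. Red points mark the 54 genes higher and blue points the 10 genes lower in KO averaged over both sexes, and grey points the 127 others. Most points lie at the upper right, where 113 genes sit, and Zfp277 lies alone at the lower left.

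No zinc finger gene differed between XY and XX at an adjusted p under 0.05 by limma, in KO (0 of 191, against 0.022% of all genes higher and 0.011% lower) or in WT (0 of 191, against 0.055% higher and 0.0055% lower). At an unadjusted p under 0.05 5 were higher and 10 lower in KO (2.62% and 5.24%, against 5.46% and 4.55% of all genes), and 23 were higher and 11 lower in WT (12% and 5.76%, against 7.25% and 3.19%). The interaction of genotype and sex called none (0 of 191, against 0% of all genes higher and 0.0055% lower), with 2 higher and 5 lower at an unadjusted p under 0.05 (1.05% and 2.62%, against 2.5% and 3.95%). In WT the absence of calls between XY and XX depends on WT XX replicate 1. Leaving it out keeps 2 WT XX arrays, and whether those 2 or replicate 1 are unusual was not tested. Without replicate 1, 45 genes passed (23.6%, against 10.3% of all genes), 20 of them higher in XY (all genes 4.95%) and 25 lower (all genes 5.36%). With arrays weighted by their quality 24 passed (12.6%, against 6.55% of all genes).

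Zfp207, which encodes a spindle protein that guards Bub3, had 11.48, 11.69 and 11.57 in WT XY pools against 11.39, 12.60 and 12.74 in WT XX pools, and 12.20, 12.27 and 12.09 in KO XY pools against 12.96, 12.69 and 12.58 in KO XX pools. WT XX replicate 1 lay with the WT XY pools and the other two WT XX arrays lay with the KO XX pools. Without replicate 1 the XY minus XX difference in WT was -1.08 ± 0.13 for Zfp207 (adjusted p = 0.000534), -1.06 ± 0.16 for Zfp383 (adjusted p = 0.00172), -0.98 ± 0.14 for Zfp319 (adjusted p = 0.00146) and -0.89 ± 0.15 for Zfp12 (adjusted p = 0.00288). The KO over WT difference in XX for these genes was then 0.08 ± 0.13, 0.15 ± 0.16, 0.07 ± 0.14 and 0.19 ± 0.15, and none passed the threshold. For Zfp54 the XY minus XX difference in WT was 0.82 ± 0.11 (adjusted p = 0.000898).

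WT XX replicate 1 lay below both other WT XX arrays in 80 of the 191 genes (41.9%, against 41.1% of all genes) and in 38 of the 54 genes that rose in KO (70.4%). It lay below them by more than 1 in 7 of the 191 genes (3.66%, against 1.34% of all genes). The rises were called with this array in the comparison, so its low place in them is a description.

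Most Zkscan genes rose when read from the chosen probe set. Of 10 Zkscan genes 7 rose over both sexes and none fell, against 13.4% and 10.3% of all genes. All 10 had a positive fold change, against 47.3% of all genes, and the median log2 fold change was 0.44 (0.48 in XX and 0.35 in XY). The sign turned for Zkscan4 and Zkscan17 when quantile normalization was repeated, and for Zkscan4 also without some single arrays. Zkscan1 had 10.21, 10.34 and 10.35 in KO XX pools against 9.71, 9.71 and 9.77 in WT XX pools, and 10.31, 10.25 and 10.24 in KO XY pools against 9.81, 9.95 and 10.03 in WT XY pools. No KO value of Zkscan1 overlapped with WT, and its log2 fold change was 0.45 ± 0.07 (adjusted p = 0.000263). Its second probe set, also bright, gave -0.09 ± 0.09, the dimmer ones gave 0.19, 0.08, -0.33 and 0.03, and the mean of all probe sets gave 0.055 (adjusted p = 0.619). The other Zkscan genes that rose were Zkscan7 (0.82 ± 0.19, adjusted p = 0.00495), Zkscan16 as given above, Zkscan3 (0.47 ± 0.13, adjusted p = 0.0142), Zkscan8 (0.45 ± 0.15, adjusted p = 0.0461), Zkscan6 (0.43 ± 0.10, adjusted p = 0.00421) and Zkscan14 (0.31 ± 0.09, adjusted p = 0.0189). Zkscan5 (0.26, adjusted p = 0.226), Zkscan17 (0.04, adjusted p = 0.763) and Zkscan4 (0.03, adjusted p = 0.911) did not pass. The further probe sets gave 0.04 and 0.04 for Zkscan3, 0.04 for Zkscan6, -0.04 and -0.10 for Zkscan14 and -0.01 and -0.11 for Zkscan8. With the mean of all probe sets the calls of Zkscan1, Zkscan3, Zkscan8 and Zkscan14 ended, and those of Zkscan6, Zkscan7 and Zkscan16 held in all 22 alternatives. The call of Zkscan8 ended in 15 of 22 alternatives, among them leaving out any single array other than WT XX replicates 2 and 3, and without WT XX replicate 1 its value was 0.30 (adjusted p = 0.0748). With the Gapdh covariate the calls of Zkscan3, Zkscan8 and Zkscan14 ended, and that of Zkscan14 also without WT XY replicate 3.

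Of the 9 Zscan genes none rose (against 13.4% of all genes) and Zscan2 fell (11.1%, against 10.3%). Their median log2 fold change was 0.05. Zscan2 had 4.60, 4.69 and 4.58 in KO XX pools against 5.06, 4.90 and 4.98 in WT XX pools, and 4.71, 4.79 and 4.74 in KO XY pools against 4.91, 4.87 and 5.0 in WT XY pools, a dim signal throughout. Without WT XX replicate 1 its call in XX ended (-0.32 ± 0.11, adjusted p = 0.0686). Zscan18, at 0.40 ± 0.14 (adjusted p = 0.0573), was the nearest to a rise.

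Genes with a known role in pluripotent cells did not pass the test over both sexes. Zfp42, the stem cell marker Rex1, had a log2 fold change of 0.28 ± 0.10 (adjusted p = 0.0517) and Zscan10 one of -0.24 ± 0.09 (adjusted p = 0.0638). Zfp281, Zfp462 and Zfp296 had values of 0.34, 0.20 and -0.30 (adjusted p = 0.0692, 0.291 and 0.108). Zfp42 had 7.86, 7.59 and 7.69 in KO XX pools against 7.48, 7.63 and 7.31 in WT XX pools, and 7.83, 7.95 and 7.57 in KO XY pools against 7.64, 7.49 and 7.25 in WT XY pools, with overlap in both sexes.

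Among the genes that act at imprinted regions, Zfp445, which with Zfp57 keeps methylation marks there, rose by 0.37 ± 0.12 (adjusted p = 0.0378). It had 11.45, 11.37 and 11.25 in KO XX pools against 10.45, 11.18 and 11.23 in WT XX pools, and 11.03, 11.17 and 10.87 in KO XY pools against 10.57, 10.79 and 10.68 in WT XY pools. The groups did not overlap, but WT XX replicates 2 and 3 reached close to the KO XX arrays, and without replicate 1 the value in XX was 0.15 ± 0.12 (adjusted p = 0.478). Over both sexes the call of Zfp445 ended in 10 of 22 alternatives, among them leaving out KO XX or KO XY replicate 1 or 2 and WT XY replicate 1 or 3, with an adjusted p of up to 0.19. Zfp57 itself had a log2 fold change of -0.02 ± 0.10 (adjusted p = 0.926), a sign that turned when quantile normalization was repeated. Zfp568, which silences a placental Igf2 transcript, had -0.05 ± 0.09 (adjusted p = 0.734).

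Of a short list of 6 developmental regulators 3 rose (50%, against 28.3% of the 191 genes and 13.4% of all genes). Besides Zfp423, these were its close relative Zfp521 (0.35 ± 0.09, adjusted p = 0.00794) and Zfp148 (0.31 ± 0.09, adjusted p = 0.0236). Zfp521 had 10.92, 10.87 and 10.98 in KO XX pools against 10.55, 10.16 and 10.55 in WT XX pools, and 10.78, 10.84 and 10.87 in KO XY pools against 10.48, 10.72 and 10.69 in WT XY pools. The call of Zfp148 ended in 9 of 22 alternatives, among them leaving out KO XX replicate 2 or 3, KO XY replicate 1, WT XX replicate 2 or WT XY replicate 2 or 3 (adjusted p up to 0.193). Zfp335, Zfp292 and Zfp536 had values of -0.21, -0.04 and -0.01 and did not pass (adjusted p = 0.21, 0.802 and 0.967). The further probe sets of Zfp292 were all lower in KO. One gave -0.45 (limma over all probe sets, adjusted p = 0.011), and the others, not past the threshold, gave -0.28, -0.355, -0.17 and -0.21. For Zfp536 the sign turned under other scalings of the arrays.

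Of 7 nuclear and mitotic genes Zfp207 rose (0.55 ± 0.18, adjusted p = 0.0363) and Zfp91 fell. Each makes up 14.3% of the list, against 13.4% of all genes higher and 10.3% lower. The call of Zfp207 ended in 11 of 22 alternatives, with an adjusted p of up to 0.17, among them leaving out any KO XY or WT XY array and KO XX replicate 1 or 2. Zfp217, Zfp219, Zfp367, Zfp451 and Zfp318 had values of 0.20, 0.22, 0.32, 0.24 and -0.13, with adjusted p of 0.131, 0.0596, 0.0908, 0.0884 and 0.349. For Zfp451 and Zfp318 this holds for the chosen probe set. A further probe set of Zfp451 rose by 0.65 (limma over all probe sets, adjusted p = 0.0024), while its others gave 0.20, -0.04 and -0.14. A further probe set of Zfp318 rose by 0.46 (adjusted p = 0.0015 in that fit), while its others gave -0.13, -0.08 and -0.16. Zfp219 is a partner of Sox9 in cartilage cells and Zfp451 a SUMO ligase. Of 3 RNA-binding zinc finger genes none passed: Zfp36, which speeds the decay of AU-rich mRNAs, had 0.20, Zfp106 had 0.23 and Zfp346 had 0.06 (adjusted p = 0.211, 0.116 and 0.736).

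The family is spread over the genome in groups of neighbours, and 71 of the 191 genes lay beside another of them in RefSeq gene order, in 25 runs. In 5 runs at least 2 genes changed, all in 1 direction, in 1 run genes changed both ways, in 12 exactly 1 gene changed and in 7 none did. Over all 191 genes 28.3% rose and 5.24% fell, and how such shares by themselves would spread over runs was not tested. The runs named next were chosen for their number of changed genes, with ties going to the longer run, which makes unchanged neighbours in them more likely. On chromosome 17, Zfp54 and Zfp52 fell (-0.62 ± 0.11 and -0.57 ± 0.13) while their neighbours Zfp51 and Zfp53 had values of -0.23 and 0.33 (adjusted p = 0.34 and 0.225). The calls of Zfp54 and Zfp52 both ended with the mean of all probe sets. On chromosome 5, Zkscan1 and Zfp113 rose (0.45 ± 0.07 and 0.26 ± 0.08) while Zscan21, next to Zkscan1, had 0.03 (adjusted p = 0.839). The call of Zkscan1 ended with the mean of all probe sets, as given above. On chromosome 7, Zfp93 (0.44 ± 0.10, adjusted p = 0.00629) and Zfp61 (0.55 ± 0.14, adjusted p = 0.0115) rose and their neighbour Zfp94 fell (-0.28 ± 0.10, adjusted p = 0.0491), while Zfp111, Zfp109 and Zfp108 had 0.26, -0.18 and 0.01. The call of Zfp61 ended with the Gapdh covariate (adjusted p = 0.0543). The calls of Zfp94 and Zfp113 ended in 16 of 21 and in 8 of 22 alternatives, among them leaving out most single arrays for Zfp94 and 6 single arrays for Zfp113 (KO XX replicate 3, KO XY replicates 1 and 3, WT XX replicate 1, WT XY replicates 2 and 3). In these 3 runs, genes past the threshold and genes not past it lay side by side. Some runs of 2 genes held only genes that rose. These were Zfp287 and Zfp286 on chromosome 11 (adjusted p = 0.0312 and 0.0442) and Zfp84 and Zfp30 on chromosome 7 (0.00879 and 0.0174). Zfp445 and Zkscan7 on chromosome 9 (0.0378 and 0.00495) were another such run. Further probe sets of Zfp287, Zfp84, Zfp30 and Zfp445 did not pass. Close paralogs may hybridise to the same probes, and how far they do was not tested.

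Agreement between probe sets was incomplete. Of the 191 genes 101 had several probe sets, and the 64 genes called over both sexes included 40 such genes with 76 further probe sets. Of these 49 had the same direction as the chosen one, 12 of them past the threshold, and 3 passed in the opposite direction. Zfp266 is an example: its chosen probe set gave 0.53 ± 0.17 and the others -0.12 ± 0.11, -0.81 ± 0.13 and 0.36 ± 0.20. Its call ended without KO XX replicate 2 or 3, KO XY replicate 1 or 2 and WT XY replicate 1 or 3.

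Zfp genes outside the number range were also more often higher than lower in KO. Among 133 Zfp genes numbered 600 and above, 34 rose (25.6%, against 13.4% of all genes) and 6 fell (4.51%, against 10.3%). Their median log2 fold change was 0.10. Among 19 symbols that carry a letter after the number, 6 rose (31.6%) and 1 fell, with a median of 0.15. At the upper boundary of the numbers, just inside it, Zfp598 had -0.08 and Zfp599 -0.40, and just outside it Zfp605 had -0.19 and Zfp606 0.61, while with the mean of all its probe sets Zfp606 had -0.01.

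Co-repressor and heterochromatin genes, Trim28 and Setdb1 among them, were read beside the family in a list of 31 measured genes. They are called co-repressors for short, though not each of them is a partner of KRAB domains. Of these 5 rose (16.1%) and 2 fell (6.45%), shares close to those of all genes, and their median log2 fold change was 0.05. Trim28 itself had -0.12 ± 0.10 (adjusted p = 0.464) and Setdb1 0.16 ± 0.09 (adjusted p = 0.232). Dnmt3a, a de novo DNA methyltransferase, had 11.15, 11.20 and 10.89 in KO XX pools against 9.86, 10.28 and 10.51 in WT XX pools, and 10.98, 10.94 and 10.90 in KO XY pools against 9.98, 10.20 and 10.21 in WT XY pools. All KO values of Dnmt3a lay above all WT values, with a log2 fold change of 0.84 ± 0.11 (adjusted p = 3.83e-05). The heterochromatin protein gene Cbx1 (0.63 ± 0.18, adjusted p = 0.0168), the chromatin remodelers Atrx (0.35 ± 0.11, adjusted p = 0.035) and Chd3 (0.25 ± 0.07, adjusted p = 0.0172) and the H3 lysine 9 methyltransferase gene Ehmt2 (0.27 ± 0.09, adjusted p = 0.0432) also rose. Trim24, a relative of Trim28, fell by 0.61 ± 0.11 (adjusted p = 0.000825) and the DNA methyltransferase Dnmt3b by 0.56 ± 0.11 (adjusted p = 0.00185). The call of Cbx1 ended with the mean of all probe sets (0.24, adjusted p = 0.0943) and with the Gapdh covariate. The call of Ehmt2 ended in 13 of 22 alternatives, among them leaving out most single arrays (adjusted p up to 0.203). The call of Atrx ended with the Gapdh covariate and its sign turned with the mean of all probe sets (-0.03), and the call also ended without each KO XY array, KO XX replicate 1 or 2 and WT XY replicate 1 or 3.

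**Figure D4:**
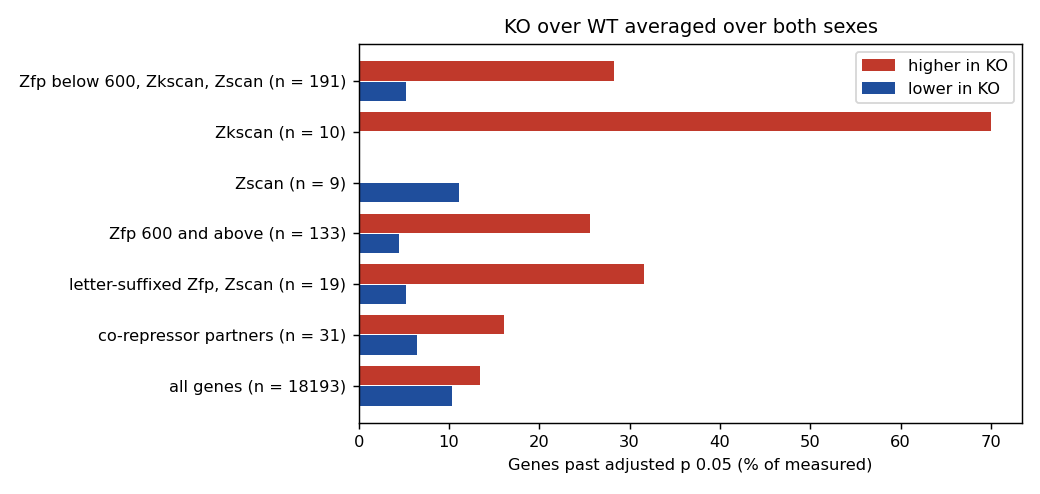
Share of measured genes past an adjusted p of 0.05 in KO over WT, averaged over both sexes, higher in KO (red, upper bar of each pair) and lower in KO (blue). The zinc finger genes reach 28.3% higher and 5.24% lower, all genes 13.4% and 10.3%, and the Zkscan genes 70% higher.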

How the data were processed

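Gonadal cells were captured by laser and pooled, and 15 ng of total RNA per pool went through amplification and biotin labelling before hybridisation, per the labels' protocols. The deposited values are log2 signals that the authors made with RMA, per the submitters' processing notes, which name Affymetrix Expression Console, RMA and affy. RMA equalises the distributions of the arrays, so a shift of all genes would be removed. Of 45101 probe sets, 64 were controls and 34945 had a single gene.

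The 12 arrays were fitted with limma 3.58.1 in R 4.3.3 (lmFit and eBayes, 4 group means, 8 residual degrees of freedom, two-sided), over all 18193 genes, for 6 contrasts with Benjamini-Hochberg adjustment in each. A gene passed at an adjusted p under 0.05. Fold changes are given ± SE. The fit was tested on simulated data. No filter on low values was used, and for arrays their number limits the precision.

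Members, gene lists and neighbours were chosen with earlier results of these data known. Named genes were those with the largest changes without overlap (up to 12 each way over both sexes and up to 6 each way in each sex), the role lists, the genes at the number boundary, genes with disagreeing probe sets, 3 runs of neighbours, and co-repressors. The Zkscan genes were named in full, and Zscan18, Zfp105, Zfp449, Zfp593 and Ehmt2 after their values were seen. Zfp143, Zfp260 and Suv39h1 had no probe set of their own. All 191 genes matched RefSeq identifiers, and promoters are from RefSeq. Alternatives covered scaling, filter, probe sets, variance prior, array weights, the Gapdh covariate, a replicate block, the threshold and leaving out arrays. Others kept only 2 groups in the fit or added the letter-suffixed symbols to the family. Replicate numbers did not pair the samples.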

Additional observations from a re-analysis of the deposited data

How the results depend on the processing

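Over both sexes the count of zinc finger genes higher in KO (54) ranged from 36 to 59 under settings that kept the threshold and all arrays and added no genes. The 36 came with the Gapdh covariate (18.8%, against 9.69% of all genes). With the letter-suffixed symbols added to the family the count was 60 (28.6%, against 13.4%). It was 27 at an adjusted p under 0.01 (14.1%, against 8.28%). The count lower (10) was 4 at that threshold (2.09%, against 6.44% of all genes) and 6 with the Gapdh covariate (3.14%, against 7.84%). In XY the count higher (22) was 48 with array weights (25.1%, against 13.2% of all genes) and 46 with 2 groups in the fit (24.1%, against 11.1%). It was 3 at 0.01 (1.57%, against 3.22%) and 2 with the Gapdh covariate (1.05%, against 1.65%). The count lower (3) was 8 with weights (4.19%, against 11%), 7 with 2 groups (3.66%, against 9.83%) and 1 with the covariate (0.524%, against 2.63%). In XX the count higher (24) was 14 with 2 groups (7.33%, against 5.11% of all genes), 7 at 0.01 (3.66%, against 4.35%) and 44 with the covariate (23%, against 11.2%). The count lower (5) was 3 with centring (1.57%, against 4.74%) and 3 with a filter at a mean of 5 (1.67%, against 6.66%). It was 2 with weights (1.05%, against 4.6%), 2 with 2 groups (1.05%, against 3.31%) and 1 at 0.01 (0.524%, against 2.96%). XY against XX in WT (0) gave 24 with weights (12.6%, against 6.55% of all genes). The co-repressors higher (5) were 1 at 0.01 and 2 with the covariate. The cause was not tested.

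Leaving out 1 array at a time gave 42 to 61 higher and 8 to 11 lower over both sexes, 5 (without WT XY replicate 1) to 40 (without WT XX replicate 1) higher and 3 to 6 lower in XY, 14 (without KO XX replicate 3) to 29 higher and 1 to 6 lower in XX. XY against XX gave 0 to 45 in WT and 0 to 0 in KO, the interaction 0 to 0, and the co-repressors 3 to 6 higher and 2 to 2 lower. Apart from the 45, whose shares are given above, the shares of all genes in these settings are not given.

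Of 1842 values of 84 named genes, 1618 kept direction and side of the threshold, 152 lost it, 34 gained it and 38 changed sign, 4 of these for called genes. With the mean of all probe sets the log2 fold change was 0.0631 for Zfp91, -0.1018 for Zfp106, -0.0057 for Zfp606, -0.0107 for Zfp266, -0.0135 for Zfp53, -0.019 for Zscan21 and -0.0301 for Atrx. Zfp536 turned to 0.0087 with centring, 0.0192 with repeated quantile normalization and 0.0051 with weights, Zfp57 to 0.0117, Zscan21 to -0.0386, Zkscan4 to -0.0011 and Zkscan17 to -0.0166 with quantile normalization, and Zfp108 to -0.0329 with weights. With 1 array left out, genes whose sign turned ranged from -0.0751 to 0.0643 (Zfp57), -0.0567 to 0.0333 (Zfp536), -0.0848 to 0.0195 (Zfp292), -0.086 to 0.0844 (Zfp108), -0.0017 to 0.1327 (Zfp346), -0.064 to 0.1245 (Zkscan4) and -0.0057 to 0.0877 (Zscan21).

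With replicate number as a block the counts over both sexes were 58 higher (30.4%, against 13.7% of all genes) and 10 lower (5.24%, against 10.6%). Deviations of same-numbered arrays correlated at -0.21 to 0.28 over 18 pairs, so the numbers were not taken as pairs, and the block moved no count by over 1.5 times.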
